A study of Homo sapiens with 8 samples.

Results

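BHLHE40 and its partners among the repressors and output genes of the circadian clock are followed here in A2058 melanoma cells exposed to TGFβ1. All probes annotated to BHLHE40, BHLHE41, PER1, PER2, PER3, CRY1, CRY2, NR1D1, NR1D2 or DBP were taken, which gave 13 probes for these 10 genes among the 47315 probes of the array. The genes were chosen by name with the TGFβ1 minus vehicle differences of these same arrays already known. The differences of the 10 genes are therefore given as a description, and whether a probe passed the threshold is stated without being offered as support for the choice.

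A2058 cells are an established human line derived from a melanoma metastasis. The experiment had 4 wells given TGFβ1 and 4 control wells without it, each read on 1 Illumina HT-12 array. The control wells are titled untreated and are called vehicle wells here. The titles of all 8 samples name an empty vector, and the methods give Lipofectamine2000 for transient transfections in general. According to the methods the exposure lasted 24 h in serum-free media at either 5 or 10 ng/ml TGFβ1, and the dose of the arrays is not given. The wells were plated together from 1 passage of 1 cell line, so the errors below measure the spread between such wells. No series of times was sampled, so phase or amplitude of a rhythm was not measured. The values are log2 expression centred to a mean of 0 for each probe over the 8 arrays. They show differences between arrays and no level, and a transcript near background cannot be told apart from one that is well expressed and steady.

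In the mammalian clock the activators CLOCK and BMAL1 bind E-box sequences and switch on PER and CRY genes, whose proteins then hold the activators back. BHLHE40 and BHLHE41, also called DEC1 and DEC2, are basic helix-loop-helix repressors that bind the same E-boxes. The nuclear receptors NR1D1 and NR1D2 repress BMAL1, and DBP activates genes with a D-box. BHLHE40 is also known as a gene that responds to growth factors, hypoxia and serum in many cell types.

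The BHLHE40 transcript is read by a single probe of 50 bases on chromosome 3, shown here by its first 30 bases because the main value of this report rests on it.
BHLHE40 probe: ggtccagagtacttgttttcccgatgtgtc

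Promoter windows of the genes were taken from RefSeq on GRCh38.p14, from 250 bases before to 50 bases after each annotated start, and all 10 genes were matched, by 13 windows. The 4 windows with the E-box CACGTG are shown because this is the element that both the activators and BHLHE40 bind, and they belong to BHLHE40, BHLHE41, PER1 and NR1D2. Capitals mark CACGTG and, in PER1 and NR1D2, a D-box. They lie at chr3:4979187-4979486 on the plus strand for BHLHE40, at chr12:26124988-26125287 on the minus strand for BHLHE41, at chr17:8152355-8152654 on the minus strand for PER1 and at chr3:23945871-23946170 on the plus strand for the second start of NR1D2.
BHLHE40 promoter: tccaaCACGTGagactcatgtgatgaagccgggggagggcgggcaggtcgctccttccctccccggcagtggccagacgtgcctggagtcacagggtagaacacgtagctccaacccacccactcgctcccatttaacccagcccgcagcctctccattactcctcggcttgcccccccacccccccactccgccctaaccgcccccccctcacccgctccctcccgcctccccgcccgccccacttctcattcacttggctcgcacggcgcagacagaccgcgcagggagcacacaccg
BHLHE41 promoter: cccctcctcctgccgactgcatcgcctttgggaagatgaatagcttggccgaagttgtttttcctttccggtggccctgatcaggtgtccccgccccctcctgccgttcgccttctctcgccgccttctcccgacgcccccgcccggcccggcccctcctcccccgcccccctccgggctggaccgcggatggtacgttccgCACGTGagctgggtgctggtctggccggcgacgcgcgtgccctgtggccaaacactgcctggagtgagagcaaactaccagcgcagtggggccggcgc
PER1 promoter: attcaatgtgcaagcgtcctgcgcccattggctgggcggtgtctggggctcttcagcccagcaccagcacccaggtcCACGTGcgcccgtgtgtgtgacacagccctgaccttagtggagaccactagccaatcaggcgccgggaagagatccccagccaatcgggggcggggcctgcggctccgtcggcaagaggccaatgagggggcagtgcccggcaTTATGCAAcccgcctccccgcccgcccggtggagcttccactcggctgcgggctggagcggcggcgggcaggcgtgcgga
NR1D2 promoter: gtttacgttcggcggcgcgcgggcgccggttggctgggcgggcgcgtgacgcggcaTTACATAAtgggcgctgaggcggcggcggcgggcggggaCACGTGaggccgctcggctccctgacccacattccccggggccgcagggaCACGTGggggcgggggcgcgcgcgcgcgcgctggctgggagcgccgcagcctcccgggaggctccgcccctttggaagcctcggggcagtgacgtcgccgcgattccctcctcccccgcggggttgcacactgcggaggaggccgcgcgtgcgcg

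The E-box began 245 bases before the start in BHLHE40, 48 before it in BHLHE41 and 173 before it in PER1, and NR1D2 held it at 155 and at 105 bases. CACGTG was found in 7.2% of 34796 different RefSeq windows of the same length, on both strands. The variant CACGTT was present in 1 window each of PER2, CRY1, CRY2 and NR1D1, and in 5.34% of all windows. The D-box TTANGTAA occurred in windows of PER2, PER3 and NR1D2 and in 2.18% of all windows, and its relative TTATGCAA in PER1 and in 0.842% of all. AGGTCA, the core bound by NR1D and ROR receptors, was in CRY2 and PER1 and in 13.8% of all windows. CAGACA, which holds the core of the SMAD element, was in BHLHE40, 22 bases after the start, and in PER1, and in 16.9% of all windows. The letters of the AP-1 site TGACTCA and of the cyclic AMP response element TGACGTCA were in 0 of the 13 windows, against 4.96% and 1.84% of all. The matches overlapped one another in 0 cases. They describe letters in these windows and no binding.

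**Figure D1:**
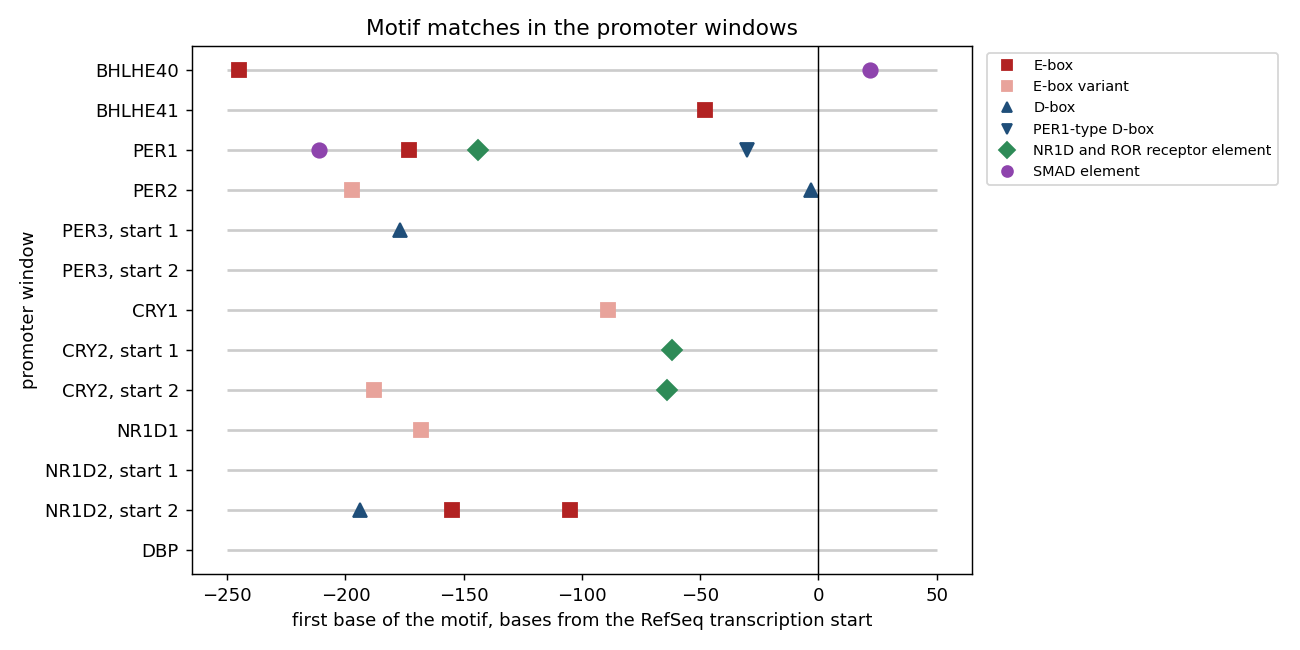
Motif matches in the 13 promoter windows of the 10 genes, by distance in bases from the RefSeq start (horizontal axis, start at 0). BHLHE40, BHLHE41, PER1 and the second start of NR1D2 carry CACGTG (dark red squares).

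BHLHE40 mRNA was higher in every TGFβ1 well than in every vehicle well. The centred log2 values were −0.53, −0.25, −0.50 and −0.45 in vehicle replicates 1 to 4. Under TGFβ1 they were 0.35, 0.45, 0.57 and 0.37. The groups stood 0.608 apart at their nearest, between vehicle replicate 2 and TGFβ1 replicate 1. The means were 0.44 ± 0.10 (SD, n = 4) and −0.44 ± 0.13 (SD, n = 4), a log2 change of 0.87 (SE 0.08, 95% interval 0.70 to 1.05), which is 1.83-fold with an interval of 1.62 to 2.06. It was the 127th highest change of the 47315 probes, and by size in either direction it stood within the top 0.383%. The probe passed an adjusted p under 0.05 in limma, and SAM, run at a median of 10 false positives, called it too.

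BHLHE41, the closest relative of BHLHE40, was nearly level. It measured −0.01, −0.11, −0.09 and 0.00 in the vehicle wells. The TGFβ1 wells gave 0.11, 0.07, −0.02 and 0.04. The groups overlapped slightly, since the lowest TGFβ1 well at −0.0227 lay below the highest vehicle well at 0.00264. The log2 change of 0.10 (SE 0.07) had an interval of −0.05 to 0.26, where that of BHLHE40 was 0.70 to 1.05.

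**Figure D2:**
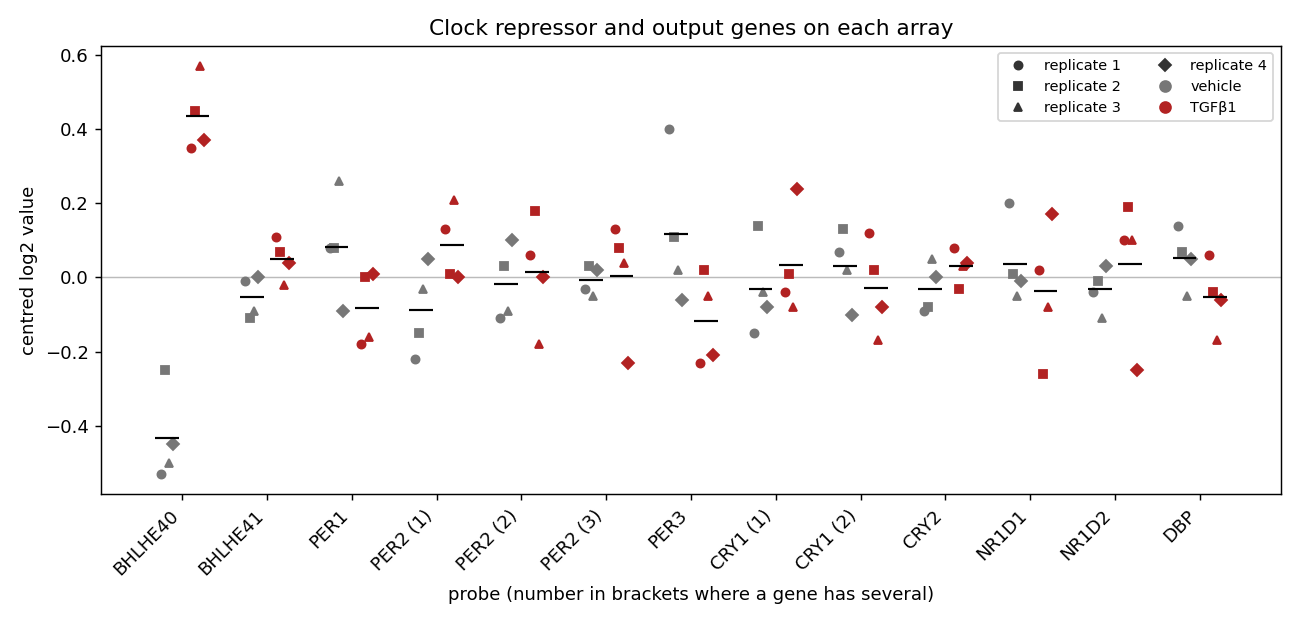
Centred log2 value (vertical axis) of each of the 13 probes on the 4 vehicle arrays (grey) and the 4 TGFβ1 arrays (red), with bars at the group means and marker shapes for the replicate numbers, which do not pair the wells. The BHLHE40 groups are apart, and the groups of the other 12 probes overlap.

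The PER genes encode the repressors that join CRY proteins to close the feedback loop. PER1, which many signals induce acutely, had values of 0.08, 0.08, 0.26 and −0.09 under vehicle. Under TGFβ1 they were −0.18, 0.00, −0.16 and 0.01. Most TGFβ1 wells were lower, but vehicle replicate 4 lay among them. The change was −0.17 (SE 0.09, interval −0.34 to 0.01) and did not pass.

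PER2 was read by 3 probes, all annotated to the same RefSeq transcript, which gave unequal values. The first measured −0.22, −0.15, −0.03 and 0.05 in vehicle wells. In TGFβ1 wells it measured 0.13, 0.01, 0.21 and 0.00. Vehicle replicate 4 overlapped the TGFβ1 wells, and the change of 0.18 (SE 0.08, interval 0.00 to 0.35) did not pass. The second probe changed by 0.03 (SE 0.09) and the third by 0.01 (SE 0.08). In the third, TGFβ1 replicate 4 at −0.23 was below all other wells, while the other TGFβ1 wells lay from 0.04 to 0.13. Averaged over its probes PER2 changed by 0.07 (SE 0.06).

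PER3 had the most negative change of the 10 genes. Its vehicle values of 0.40, 0.11, 0.02 and −0.06 were led by replicate 1. TGFβ1 wells stood at −0.23, 0.02, −0.05 and −0.21, overlapping the lower vehicle wells. The change was −0.23 (SE 0.10, interval −0.44 to −0.03) and did not pass the threshold over all probes. Without vehicle replicate 1 it was −0.14.

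The cryptochromes CRY1 and CRY2 enter the nucleus with PER proteins and repress CLOCK and BMAL1. The first CRY1 probe ranged from −0.15 to 0.14 under vehicle and from −0.08 to 0.24 under TGFβ1. The other ranged from −0.10 to 0.13 and from −0.17 to 0.12. Their changes had opposite signs, at 0.06 (SE 0.09) and −0.05 (SE 0.08), and their mean was 0.00 (SE 0.07). CRY2 lay within −0.09 to 0.05 in vehicle wells and −0.03 to 0.08 in TGFβ1 wells, a change of 0.06 (SE 0.07, interval −0.09 to 0.22). In all 3 probes the groups overlapped.

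Among the receptors, NR1D1, also called REV-ERBα, gave 0.20, 0.01, −0.05 and −0.01 under vehicle. TGFβ1 values were 0.02, −0.26, −0.08 and 0.17, so that the TGFβ1 wells spread from below all vehicle wells to just under the highest of them. Its change was −0.08 (SE 0.09, interval −0.27 to 0.12). NR1D2, or REV-ERBβ, lay from −0.11 to 0.03 in vehicle wells, whereas TGFβ1 replicates 1 to 3 measured 0.10, 0.19 and 0.10 and replicate 4 measured −0.25. The change of 0.07 (SE 0.09, interval −0.12 to 0.26) became 0.16 without TGFβ1 replicate 4 and did not pass in either case. DBP, the D-box activator and a direct output of the loop, stood at 0.14, 0.07, −0.05 and 0.05 under vehicle. Under TGFβ1 it stood at 0.06, −0.04, −0.17 and −0.06. Its change was −0.10 (SE 0.08, interval −0.27 to 0.06).

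**Figure D3:**
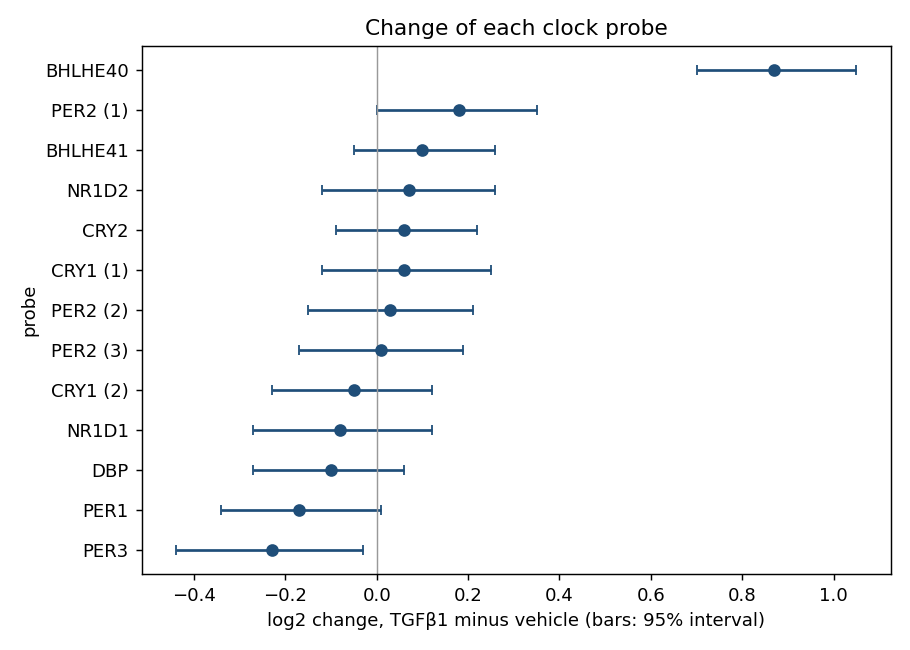
Log2 change, TGFβ1 minus vehicle (horizontal axis), of each of the 13 probes with its 95% interval from limma. BHLHE40 at 0.87 lies apart, and the intervals of the other 12 probes reach from −0.44 to 0.35 at the outermost.

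In total limma called 1 of the 13 probes higher and 0 lower (threshold, adjusted p of 0.05). Over all 47315 probes 3.33% were called, 1.80% higher and 1.53% lower. Without overlap between the groups were 1 of 13 probes, against 7.26% of all probes. Because this contrast was known when the genes were chosen, nothing is read from these shares. Of the 12 probes other than BHLHE40, 0 were called by limma, 0 by SAM and 2, those of PER2 and PER3, had an unadjusted p under 0.05, which 11.5% of all probes had. Their median change was 0.0213, beside −0.00181 over all probes, and their median change without sign was 0.0711, beside 0.0671. The upper end of each of their intervals was at most 0.35, and the interval of BHLHE40 began at 0.70. That is a description only, since the change of BHLHE40 was known beforehand. Standard errors ran from 0.074 to 0.096 over the 13 probes.

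The remaining clock machinery was read by 41 probes of 22 genes. It comprised the activators (CLOCK, ARNTL, which encodes BMAL1, ARNTL2, NPAS2, RORA and RORB), kinases and ubiquitin ligases that set the stability of PER and CRY (such as CSNK1D, CSNK1E, BTRC and FBXW11), further repressors and cofactors (such as CIART, TIMELESS and HDAC3) and the D-box factors TEF, HLF and NFIL3. Of these 41 probes 0 were called by limma, beside 3.33% of all probes, and 0 by SAM. An unadjusted p under 0.05 in limma was found for 3 of them, beside 11.5% of all probes. The changes lay between −0.157 and 0.294, with a median of −0.0104. Singled out after the values were seen, 1 of 2 CLOCK probes changed by 0.29 (SE 0.09, adjusted p = 0.071 in limma) and 1 of 2 ARNTL probes by 0.25 (SE 0.08, adjusted p = 0.14 in limma). These were among 4 of the 41 probes whose groups did not overlap, 3 higher and 1 lower, beside 7.26% of all probes. The other probe of each gene changed by 0.01 (SE 0.08). The probes of 1 gene thus did not give the same value for either activator. For both genes the 2 probes are annotated to different transcript records, and whether they read different transcripts was not tested.

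Genes that the clock controls in other tissues gave 2 higher and 0 lower of 19 probes in limma, beside 1.80% and 1.53% of all probes. The list was chosen with earlier results of these data known. Nothing is therefore read from these shares, and the p-values below are a description. PPARGC1A, a coactivator of mitochondrial genes and, in the mouse, of BMAL1 transcription, rose from −0.55 ± 0.17 (SD, n = 4) to 0.55 ± 0.071 (SD, n = 4), by 1.10 (SE 0.09, adjusted p = 6.5e-08 in limma). Every TGFβ1 well was above every vehicle well, with 0.895 between the nearest. Groups without overlap were found for 7.26% of all probes. WEE1, the kinase that restrains entry into mitosis and whose gene carries E-boxes in the mouse, measured −0.28, −0.29, −0.57 and −0.08 under vehicle. TGFβ1 wells gave 0.16, 0.09, 0.45 and 0.51, all above the vehicle wells. Its change was 0.61 (SE 0.11, adjusted p = 0.0014 in limma). The other 8 genes of this list, among them NOCT, NAMPT and USP2, had 0 probes called. The list's median change was 0.0142.

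BHLHE40 belongs to a wider set of helix-loop-helix repressors with the HES and HEY genes, which are best known as targets of Notch signalling. Of 11 probes for 9 of these genes, 1 was higher and 1 was lower in limma, beside 1.80% and 1.53% of all probes. An unadjusted p under 0.05 in limma was found for 5 of the 11, beside 11.5% of all probes. This list too was chosen with earlier results known, so nothing is read from its shares and its p-values are a description. HEY2 changed by 0.50 (SE 0.11, adjusted p = 0.011 in limma), from −0.25 ± 0.27 (SD, n = 4) to 0.25 ± 0.14 (SD, n = 4). Its groups overlapped, with vehicle replicate 1 at 0.11 above TGFβ1 replicate 2 at 0.08. Without vehicle replicate 2, vehicle replicate 3 or TGFβ1 replicate 3 the call was lost (adjusted p = 0.052, 0.052 and 0.051 in limma), and SAM did not make it. HES6 measured 0.22, 0.00, 0.22 and 0.18 under vehicle and −0.23, −0.09, −0.18 and −0.12 under TGFβ1, with no overlap. It fell by 0.31 (SE 0.08, adjusted p = 0.03 in limma), a call lost in SAM and when vehicle replicate 1, 3 or 4 or TGFβ1 replicate 1, 2 or 3 was left out (adjusted p from 0.051 to 0.099 in limma). HELT had no probe named here.

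**Figure D4:**
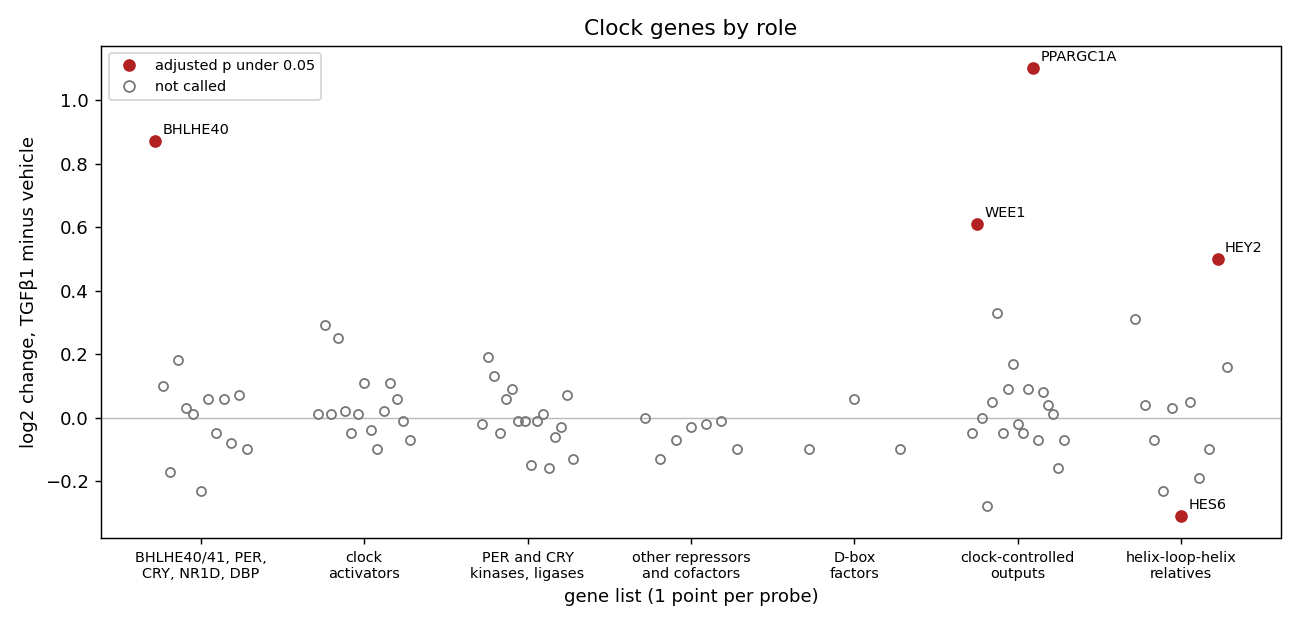
Log2 change, TGFβ1 minus vehicle (vertical axis), of each probe of the 10 clock genes and of the 6 other gene lists, with filled red points for an adjusted p under 0.05 in limma. BHLHE40, PPARGC1A, WEE1 and HEY2 lie above the other points and HES6 is the lowest.

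On the array the genes most like BHLHE40 in their course over the 8 arrays were, by Pearson's r as a description, NUAK1, a kinase related to AMPK (r = 0.9929), PTGS2, the inducible cyclooxygenase (r = 0.9929), the calcium-binding protein SRI (r = 0.9926), the homeobox factor DLX1 (r = 0.992) and DIPK1A (r = 0.9893). The most opposite were ACSS2, an acetyl-CoA synthetase (r = −0.9838), CBR3, a carbonyl reductase (r = −0.9834), SGSH, a lysosomal sulfatase (r = −0.983), LMNA, which encodes lamins A and C (r = −0.9825), and B4GALNT1, an enzyme of ganglioside synthesis (r = −0.9805). Such values mostly restate the treatment, since the arrays fall in 2 groups, and 489 other probes had r above 0.9. PTGS2 changed by 1.34 (SE 0.08) and SRI by 0.42 (SE 0.08), so a like course did not mean a like size. Among the clock genes, r to BHLHE40 ran from −0.63 for PER1 and DBP to 0.69 for the first PER2 probe.

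As a check of the treatment, 6 of 9 probes for SMAD7, SKIL, PMEPA1 and TGFBI were higher and 0 lower in limma, TGFBI by 2.40 (SE 0.08). Over all probes 1.80% were called higher and 1.53% lower. Melanocyte markers had 3 of 9 probes lower, those of SOX10 and TYRP1 and 1 MITF probe. The other MITF probes changed by −0.12 (SE 0.09) and −0.05 (SE 0.08) and were not called. Also not called were MLANA at −0.23 (SE 0.09), TYR at −0.17 (SE 0.08), S100B at −0.09 (SE 0.07) and PMEL at 0.05 (SE 0.11). DCT had no probe named here. Leukocyte and fibroblast markers had 0 of 7 and 0 of 4 called in limma, with 0 and 1 at an unadjusted p under 0.05, and centred values cannot show whether any of these genes is expressed. The array medians lay between −0.00504 and −0.00147 and the SD over probes between 0.12 and 0.16.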

How the data were processed

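RNA of 8 wells was hybridised to Illumina HT-12 arrays. The authors quantile normalised the signals and dropped control probes in BASE, then took log2 and centred genes and samples in MeV, and those log2 values were deposited. Means of 0 were checked for probes (within 1.6e-07) and arrays (within 1.8e-05). The log base is known only from the methods. Without signal levels, no filter on dim probes was possible, and the number of arrays limits the precision. A gene was attached to 30105 probes, 8 had several and 17202 none.

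Groups came from the sample titles. The TGFβ1 minus vehicle difference was fitted with limma 3.58.1 in R 4.3.3 (lmFit, then eBayes) without covariates, and p-values were adjusted over 47315 probes by Benjamini-Hochberg. The fit was tested on simulated data first. The methods' SAM was coded anew (70 relabellings, median of 10 false positives) as an alternative, beside renewed quantile normalisation, common median scaling, array weights, a threshold of 0.01, gene means, a replicate block and the omission of single arrays. The members and lists were chosen with earlier results of these data known. Named are all member probes, called genes of each list (up to 4 a direction), and the 5 genes most like and most unlike BHLHE40. Promoter windows were searched with Python 3.11.15. The authors' supplementary table gave only the BHLHE40 probe sequence.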

Additional observations from a re-analysis of the deposited data

How the results depend on the processing

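BHLHE40 kept its call in all 13 alternative fits, with log2 changes from 0.83 to 0.93, and at an adjusted p under 0.01. The other 12 clock probes were called in 0 of them. All these fits use the same arrays, and the change of BHLHE40 was known beforehand. They describe how far its value depends on the processing and are no further support for it. Over all probes the calls were 852 higher and 724 lower, 612 and 377 in SAM, 567 and 392 at an adjusted p under 0.01, and from 699 to 905 higher and from 527 to 742 lower when 1 array was left out. The 71 probes of the other clock and helix-loop-helix lists had 3 higher and 1 lower, beside 1.80% and 1.53% of all probes. Nothing is read from these shares, since the lists were chosen with earlier results known. With 1 array left out the 71 probes had from 2 to 5 higher and from 0 to 1 lower. The 5 came without TGFβ1 replicate 4, where HES1 and TSC22D3 were added. The 1 lower call, HES6, was lost (0 lower) in SAM, at an adjusted p under 0.01 and with the replicate number as a block. For HES6 the adjusted p over the alternatives of limma ran from 0.018 to 0.099 and for HEY2 from 0.00062 to 0.052. The cause was not tested. WEE1 (0.52 to 0.68) and PPARGC1A (1.03 to 1.15) were called throughout. With the replicate number as a block 817 probes were higher and 688 lower, BHLHE40 stayed at 0.87, and no named call other than that of HES6 changed. The numbers do not pair the wells, as same-numbered wells correlated between −0.02 and 0.03 in their deviations from the group means and 1 of 4 vehicle wells correlated best with its own number. Taken as gene means, 608 genes were higher and 535 lower. HES1 joined the calls there, with array weights, under both other scalings and without vehicle replicate 1. Signal over background is unknown for every probe.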

Other observations

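Within single genes of the clock-controlled list the probes gave unequal values, described here after they were seen. NAMPT, the enzyme that sets the level of NAD, changed by 0.00 (SE 0.11) on the first probe and by −0.28 (SE 0.09, adjusted p = 0.12 in limma) on the other. TSC22D3, a target of glucocorticoids, had 5 probes with changes from −0.05 to 0.33, and the highest had an adjusted p of 0.12 in limma. These probes are annotated to several transcripts, but those with the highest and the lowest change to the same transcript. Dixon's test for a single outlying array flagged 0 of the 34 groups checked over 17 named probes (critical ratio 0.829 for 4 values). With 4 values it flags only extreme gaps. Wells described above as lying apart, such as TGFβ1 replicate 4 of NR1D2 at −0.25, were therefore not flagged.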
